A study of Homo sapiens with 42 samples.

Results

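FPR1, the high-affinity receptor for bacterial and mitochondrial formyl peptides, was followed together with 7 other receptors that guide myeloid cells along chemical gradients. The 8 genes are FPR1, FPR2, FPR3, C5AR1, C3AR1, PTAFR, LTB4R and CXCR4, and each was found as 1 row of a count table that holds 57353 gene names. The set was chosen by readout: FPR1 was selected on its difference between culture media in these same libraries, and the other 7 were added as receptors of the same kind. Differences between the media are therefore given as a description with no test. Drug effects within a medium, and heavy polysome RNA against input RNA, were tested. Many of the libraries tested also enter the medium differences, so tests of FPR1 are not independent of its selection.

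MOLM-13 cells are a line from an acute myeloid leukemia (AML) whose receptor tyrosine kinase FLT3 carries an internal tandem duplication (FLT3-ITD), and all groups are this 1 line. Cells were kept for 12 hours in RPMI with serum, or in hBMSC-CM, a mix of RPMI with medium in which HS-5, a human marrow stromal line, had grown. The 7 conditions were vehicle (DMSO), the FLT3 inhibitor quizartinib (AC220) at 3 nM, and quizartinib with the mTORC1 inhibitor everolimus at 10 nM (combo) in RPMI, and vehicle, quizartinib, everolimus at 10 nM and combo in hBMSC-CM. RPMI with everolimus alone was not analysed here. Each condition had 3 cultures, and each culture gave 1 library of poly(A) RNA before fractionation (input) and 1 of RNA enriched in heavy polysomes, the messages that carry several ribosomes, which makes 42 libraries in 14 groups of 3.

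Chemoattractant receptors are seven-transmembrane proteins that couple mainly to Gi proteins. On binding of a ligand the beta-gamma subunits activate phospholipase C-beta and phosphoinositide 3-kinase gamma, Rac-driven actin polymerisation moves the cell, and the NADPH oxidase of phagocytes can be switched on. Receptor kinases, arrestins and RGS proteins then end the signal. The formyl peptide, complement and leukotriene receptors rise as myeloid cells mature, and CXCR4 holds hematopoietic and leukemic cells in the marrow by binding CXCL12.

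By position, FPR1, FPR2 and FPR3 form a cluster. In the GENCODE v44 annotation (GRCh38), FPR1 spans 51745172 to 51804115 on chromosome 19 on the minus strand. FPR2 (19, 51752026 to 51770531) and the start of FPR3 (19, 51795157 to 51826190) lie within that span on the plus strand, with no exon position shared with FPR1. C5AR1, the receptor of complement C5a, is at 47290023 to 47322066 on chromosome 19. C3AR1, which binds C3a, is at 8056844 to 8066359 on chromosome 12. PTAFR, the receptor of platelet-activating factor, is at 28147166 to 28193936 on chromosome 1. LTB4R, the high-affinity leukotriene B4 receptor, is at 24311450 to 24318036 on chromosome 14 and shares exon positions with LTB4R2 on the same strand, so reads of this pair cannot be told apart there. CXCR4 is at 136114349 to 136119177 on chromosome 2.

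The promoters of FPR1, C3AR1 and LTB4R are shown because FPR1 differed most between media, C3AR1 rose most under quizartinib in RPMI and LTB4R was the member that fell. Each is the 250 bases before the start given by RefSeq (GRCh38.p14), read 5′ to 3′ on the gene's strand, and capitals mark matches to motifs of myeloid and inflammatory factors. The FPR1 window is chr19:51751879-51752128 (minus), the C3AR1 window chr12:8066360-8066609 (minus) and the LTB4R window chr14:24312857-24313106 (plus).
FPR1: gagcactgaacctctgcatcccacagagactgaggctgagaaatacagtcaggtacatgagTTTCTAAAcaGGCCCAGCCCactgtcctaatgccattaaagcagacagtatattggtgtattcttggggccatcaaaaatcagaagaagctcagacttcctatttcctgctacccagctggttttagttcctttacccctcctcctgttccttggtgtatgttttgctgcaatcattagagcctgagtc
C3AR1: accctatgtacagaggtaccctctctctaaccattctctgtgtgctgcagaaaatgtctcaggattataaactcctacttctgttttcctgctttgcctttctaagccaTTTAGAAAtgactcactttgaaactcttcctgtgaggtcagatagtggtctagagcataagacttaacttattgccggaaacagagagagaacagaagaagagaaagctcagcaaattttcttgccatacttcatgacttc
LTB4R: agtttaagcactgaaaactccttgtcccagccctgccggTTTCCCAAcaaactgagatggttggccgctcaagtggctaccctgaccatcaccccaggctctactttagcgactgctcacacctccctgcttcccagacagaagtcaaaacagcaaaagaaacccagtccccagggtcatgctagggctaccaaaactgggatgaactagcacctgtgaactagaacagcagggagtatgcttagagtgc

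Both strands were searched for the STAT GAS motif (TTCNNNGAA), the C/EBP motif (TTNNGNAA), the ETS/PU.1 core (GAGGAAG) and the NF-kB motif. FPR1 held 1 C/EBP match, 189 to 182 bases before the start, and 1 NF-kB match, 179 to 170 bases before it. C3AR1 held 1 C/EBP match (141 to 134 bases before the start) and LTB4R held 1 (211 to 204 bases before it). C5AR1 held 1 ETS/PU.1 core and 1 NF-kB match. These letters are common: of 35116 RefSeq promoters of the same length, 33.201% held the C/EBP motif, 54.425% the NF-kB motif, 11.246% the ETS/PU.1 core and 6.567% the STAT GAS motif, which none of the 4 members in that table had. A match is a description of the sequence.

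Total counts were 19.4 to 37.2 M per input library and 21.5 to 38.8 M per heavy polysome library, and levels below are CPM, counts scaled to equal library size after TMM normalisation. CPM are relative to the other messages of a library, so a change in total RNA per cell is not seen in them. The AML markers FLT3, CD33, MPO, SPI1, CEBPA, MEIS1, HOXA9 and PTPRC were each found in all 42 libraries. Of the 14 stromal markers, which would mark HS-5 cells, 3 (COL3A1, LUM and POSTN) had no count in any library, FN1 averaged 0.514 CPM and TAGLN 4.28 CPM. COL1A1 averaged 10.1 CPM and was higher with quizartinib in both media. It was 0.948 ± 1.22 CPM in RPMI vehicle and 20.5 ± 12.3 CPM in RPMI quizartinib, and 0.633 ± 0.0927 and 12.0 ± 7.16 CPM in hBMSC-CM (SD, n = 3, input). The 3 everolimus cultures stood apart from the rest: their libraries differed from each other by a chi-square of 4.96 to 17.1 per gene, against 30.2 to 308 in the 36 other replicate pairs. They were counted as 3 samples because they differed by more than sampling noise, which separate libraries of 1 split culture would do as well. The study's reporting checklist calls its replicates biological, without describing this group. From the libraries and labels alone, whether the everolimus cultures were separate is not known. If they were not, p-values of comparisons with everolimus alone are too small. All 42 libraries share 1 estimate of the spread, so p-values of the other comparisons may then be too small as well. How far was not tested. Among the alternatives, the fit of only the groups compared leaves these libraries out of the other comparisons. Comparisons with everolimus alone cannot be made without them, and the errors of FPR1, PTAFR, LTB4R and CXCR4 in that group were small. Nothing in the labels says how independent the cultures were, so p-values measure the spread between these cultures.

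FPR1 was almost silent in RPMI and abundant in hBMSC-CM. In input RNA of RPMI vehicle the 3 cultures had 0.126, 0.833 and 0.271 CPM, from 5, 29 and 8 counts. RPMI quizartinib had 0.384, 0.557 and 0.327 CPM, and RPMI combo 0.220, 0.373 and 0.696 CPM. The 3 RPMI conditions overlapped each other. In hBMSC-CM vehicle the values were 22.8, 40.8 and 21.6 CPM, from 783, 1278 and 822 counts. In hBMSC-CM everolimus they were 39.7, 38.2 and 40.8 CPM, in quizartinib 70.3, 79.1 and 61.9 CPM, and in combo 58.6, 74.5 and 71.5 CPM. By mean, the order was quizartinib (70.4 ± 8.60 CPM), combo (68.2 ± 8.49 CPM), everolimus (39.6 ± 1.32 CPM) and vehicle (28.4 ± 10.7 CPM) in hBMSC-CM, then the RPMI conditions at 0.410 to 0.429 CPM. Quizartinib and combo in hBMSC-CM overlapped, as did everolimus and vehicle, and all 12 hBMSC-CM libraries lay above all 9 RPMI libraries.

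**Figure D1:**
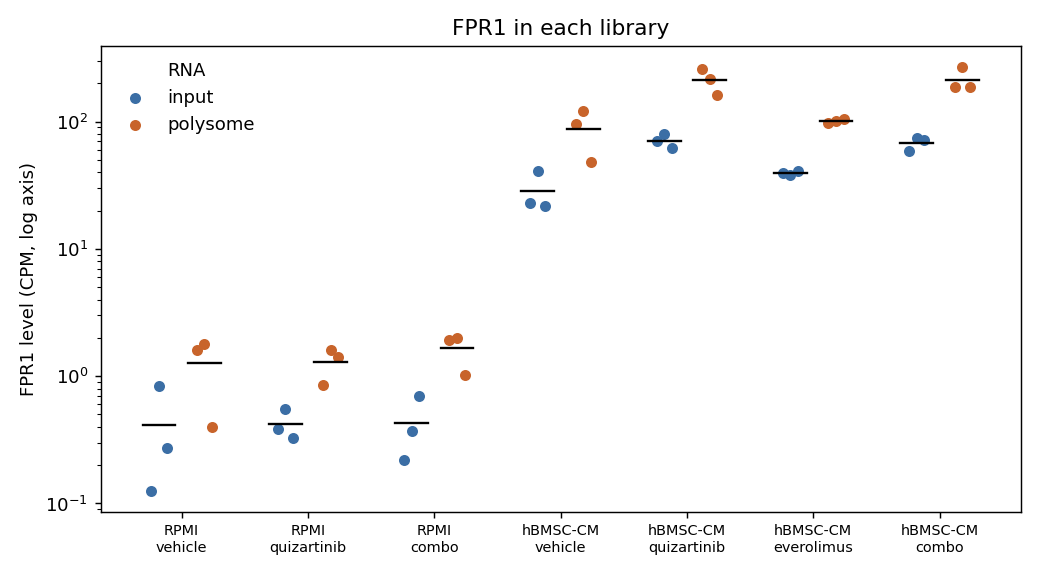
FPR1 level in each of the 42 libraries (CPM, log axis), by condition, with input RNA in blue and heavy polysome RNA in orange. Points are libraries and black bars are means of 3. RPMI libraries reach at most 2.00 CPM and hBMSC-CM libraries start at 21.6 CPM, and in each condition the heavy polysome mean lies above the input mean.

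Between the media, FPR1 in input RNA was 69.3-fold higher in hBMSC-CM under vehicle by the ratio of means (log2 difference 6.11, SE 0.48), 167-fold under quizartinib (7.36, SE 0.50) and 159-fold under combo (7.30, SE 0.50). These are the values that chose the gene. The median log2 difference over all 12939 genes tested was -0.01, -0.03 and -0.03 in the same 3 comparisons. In heavy polysome RNA FPR1 had 0.396 to 1.78 CPM in RPMI vehicle, 0.859 to 1.6 in RPMI quizartinib and 1.02 to 2.00 in RPMI combo. In hBMSC-CM it had 48.1 to 121.0 CPM under vehicle, 161.8 to 256.8 under quizartinib, 98.0 to 105.1 under everolimus and 186.2 to 267.5 under combo. The log2 differences between media there were 6.10, 7.34 and 7.01 under vehicle, quizartinib and combo. In bulk RNA, a larger share of cells that express a receptor and more RNA per cell cannot be told apart.

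The other formyl peptide receptors were far less abundant. FPR2, which also binds lipoxins and serum amyloid A, had no count in any of the 9 RPMI heavy polysome libraries and at most 9 counts (RPMI combo) in the 9 RPMI input libraries. In hBMSC-CM it had 13 to 90 counts in every input library and 29 to 76 in every heavy polysome library. Its heavy polysome means were 2.02, 2.02 and 2.25 CPM in hBMSC-CM vehicle, quizartinib and combo, at least 47.9-fold, 63.4-fold and 66.9-fold higher than a floor of 3 counts over the 3 RPMI libraries of the same drug. Its input means in hBMSC-CM were 0.760 ± 0.388 CPM under vehicle, 1.74 ± 0.697 under quizartinib, 1.02 under everolimus and 1.59 ± 0.618 under combo, and these groups overlapped. FPR3, whose known ligand is a peptide of heme-binding protein, reached at most 25 counts in a library, had no count in several libraries of both media, and its media overlapped under quizartinib and under combo in input RNA. FPR2 and FPR3 fell under the filter on low counts (under 1 CPM when averaged over the 42 libraries), so 6 of the 8 members entered the tests. FPR1 and C5AR1 passed it through hBMSC-CM: over the 18 RPMI libraries they averaged 0.912 and 0.626 CPM, with 5 to 29 and 1 to 48 counts per input library, so their tests within RPMI rest on few counts.

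The complement receptors were low and also higher in hBMSC-CM. C3AR1 in input RNA had 0.353, 0.345 and 0.372 CPM in RPMI vehicle, 1.43, 2.5 and 1.53 in RPMI quizartinib, and 1.76, 1.33 and 4.43 in RPMI combo. In hBMSC-CM it had 2.86, 3.35 and 3.18 CPM under vehicle, 4.08, 2.98 and 3.72 under quizartinib, 3.18, 2.83 and 3.01 under everolimus, and 3.96, 5.14 and 4.88 under combo. The media were far apart under vehicle (8.77-fold by means), close under quizartinib (1.97-fold), and overlapped under combo. C5AR1 in input RNA averaged 0.441 ± 0.435 CPM in RPMI vehicle, 0.326 ± 0.263 in RPMI quizartinib and 0.878 ± 0.349 in RPMI combo. In hBMSC-CM it averaged 2.13 ± 0.578 CPM under vehicle, 3.87 ± 1.05 under quizartinib, 1.25 ± 0.181 under everolimus and 3.33 ± 1.22 under combo. Its media did not overlap under any of the 3 shared treatments.

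PTAFR was higher in hBMSC-CM and with quizartinib in each medium by its means. Input values were 4.42, 6.43 and 6.87 CPM in RPMI vehicle, 9.38, 16.3 and 17.1 in RPMI quizartinib and 7.79, 17.3 and 18.0 in RPMI combo. In hBMSC-CM they were 22.8, 33.1 and 34.5 CPM under vehicle, 39.4, 53.8 and 62.7 under quizartinib, 38.6, 35.9 and 36.9 under everolimus and 30.3, 55.3 and 60.9 under combo. The media did not overlap under any shared treatment, with means 5.10-fold, 3.65-fold and 3.40-fold apart under vehicle, quizartinib and combo.

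LTB4R differed between media mainly under drug. Its input values were 45.0, 54.5 and 50.7 CPM in RPMI vehicle against 55.5, 65.4 and 92.3 in hBMSC-CM vehicle. Under quizartinib they were 19, 23.5 and 24.4 CPM in RPMI against 59.7, 66.6 and 86.3 in hBMSC-CM. The means were 1.42-fold apart under vehicle, 3.18-fold under quizartinib and 2.97-fold under combo. In RPMI combo LTB4R had 17.7, 19.8 and 25.4 CPM, and in hBMSC-CM combo 56.1, 51.6 and 79.0. In hBMSC-CM everolimus it had 62.0 to 63.9 CPM. The low values are thus those of RPMI with quizartinib, alone or in combo. CXCR4 differed little between media. It had 74.8, 77.6 and 57.7 CPM in RPMI vehicle and 94.9, 108.6 and 84.1 CPM in hBMSC-CM vehicle, a ratio of means of 1.37. Under quizartinib the media overlapped, at 141.8, 148.1 and 144.2 CPM in RPMI and 157.2, 167.0 and 142.4 CPM in hBMSC-CM.

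**Figure D2:**
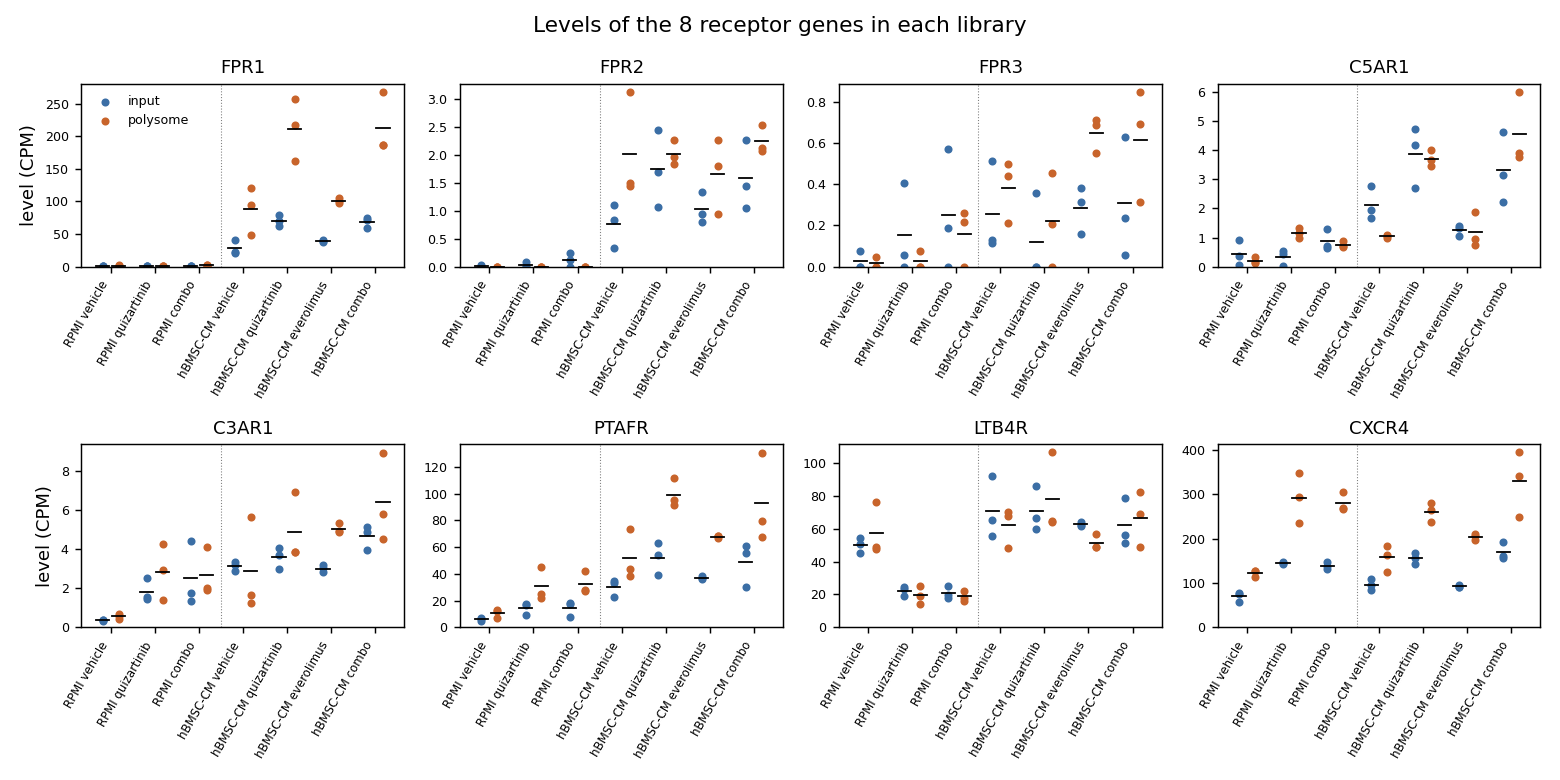
Levels of the 8 receptor genes (CPM, linear axes that differ between panels) in each library of the 7 conditions, input in blue and heavy polysome in orange. Points are libraries, black bars are means of 3, and the dotted line separates RPMI from hBMSC-CM. In input, the means of 6 genes (all but FPR3 and CXCR4) are higher in every hBMSC-CM group than in any RPMI group, while CXCR4 follows quizartinib in both media.

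Scaled per kilobase of exon, so that genes can be compared, CXCR4 ranked first of the 8 in input RNA in every condition. In RPMI vehicle the order was CXCR4 (24.1 CPM per kilobase), LTB4R (11.2) and PTAFR (1.40), while FPR1 (0.159), C5AR1 (0.149) and C3AR1 (0.102) followed, of which FPR1 overlapped C5AR1 and C5AR1 overlapped C3AR1. In hBMSC-CM vehicle it was CXCR4 (33.0), LTB4R (15.9), FPR1 (11) and PTAFR (7.16), with LTB4R and FPR1 overlapping. In hBMSC-CM quizartinib FPR1 was second (27.3), above LTB4R (15.9) and PTAFR (12.3).

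Quizartinib in RPMI asked how FLT3 inhibition alone changed these receptors. C3AR1, PTAFR and CXCR4 rose, LTB4R fell, and FPR1 and C5AR1 did not pass the test. C3AR1 changed by 2.34 on the log2 scale (SE 0.50, adjusted p = 0.000336, higher in 3 of 3 replicate numbers). PTAFR rose by 1.27 (SE 0.33, adjusted p = 0.0026) and CXCR4 by 1.05 (SE 0.17, adjusted p = 5.38e-06), each in 3 of 3. LTB4R fell by 1.17 (SE 0.25, adjusted p = 0.000295), lower in 3 of 3. In these 4 genes the vehicle and quizartinib cultures did not overlap. The share of all genes without overlap is not given here, so this describes the 4 genes only. All adjusted p here come from the quasi-likelihood test of edgeR, adjusted by Benjamini and Hochberg's method over all genes. FPR1 changed by 0.06 (SE 0.52, adjusted p = 0.945) and C5AR1 by -0.40 (SE 0.60, adjusted p = 0.644). Of all 12939 genes, 34.6% were called here, 16.6% higher and 18% lower, against 3 members higher and 1 lower of 6. The 4 calls held in all 14 alternatives tried for each. COL1A1, at 20.5 against 0.948 CPM, rose in the same comparison, and its part in these changes was not tested.

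In hBMSC-CM the same drug raised FPR1 and CXCR4. Both groups of this comparison also enter the medium differences that chose FPR1, so its test is not independent of that choice. FPR1 went from 22.8, 40.8 and 21.6 CPM to 70.3, 79.1 and 61.9 CPM, with no overlap, and changed by 1.31 on the log2 scale (SE 0.37, adjusted p = 0.0154, higher in 3 of 3). CXCR4 went from 94.9, 108.6 and 84.1 CPM to 157.2, 167.0 and 142.4 CPM, a change of 0.70 (SE 0.16, adjusted p = 0.00456, higher in 3 of 3). PTAFR changed by 0.79 (SE 0.32, adjusted p = 0.102) with no overlap between groups, and passed when the replicate number was used as a block (adjusted p = 0.0119). C5AR1 (0.87, adjusted p = 0.295), C3AR1 (0.20, adjusted p = 0.822) and LTB4R (-0.01, adjusted p = 0.991) did not pass. The CXCR4 call ended without the filter on low counts (adjusted p = 0.0618). The background was 12.3% of genes called, 5.46% higher and 6.84% lower, against 2 of 6 members, both higher. The FPR1 call was lost without quizartinib replicate 2 (adjusted p = 0.0617), vehicle replicate 1 (0.0755) or vehicle replicate 3 (0.068), and over its 14 alternatives adjusted p ran from 3.31e-05 to 0.0755. COL1A1 was 12.0 against 0.633 CPM here, and its part was not tested.

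In the edgeR fit of all 42 libraries, FPR1, C3AR1, LTB4R and PTAFR thus passed in 1 medium and not in the other. With the replicate number as a block, PTAFR passed in both media (adjusted p = 0.0119 in hBMSC-CM). Whether the quizartinib effect on any of these genes differed between media was not tested.

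Everolimus alone, and everolimus added to quizartinib, gave no call among the members. In the everolimus comparison with vehicle in hBMSC-CM, 0 of 6 members were called by edgeR, 0 had an unadjusted p under 0.05, and 0.41% of genes were called. FPR1 changed by 0.48 (SE 0.36, adjusted p = 0.795) and C5AR1 by -0.76 (SE 0.53, adjusted p = 0.772). Combo against quizartinib called 0 of 6 in RPMI, where 0.00773% of genes were called and C5AR1 had the 1 unadjusted p under 0.05 (change 1.42, SE 0.58, adjusted p = 1.0). In hBMSC-CM it called 0 of 6, with 0.24% of genes called and 0 members at an unadjusted p under 0.05. FPR1 changed by 0.01 (SE 0.53) in RPMI and by -0.05 (SE 0.36) in hBMSC-CM. DESeq2 and limma voom also called no member in these 3 comparisons.

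Quizartinib on top of everolimus in hBMSC-CM (combo against everolimus) raised CXCR4, from 91.2, 94.4 and 92.0 CPM to 161.0, 191.8 and 156.8 CPM (log2 change 0.88, SE 0.17, adjusted p = 0.000423), with 11.1% of genes called. FPR1 was higher in 3 of 3 numbers with no overlap (0.78, SE 0.36), but its adjusted p of 0.172 did not pass, and C5AR1 was alike (1.41, SE 0.53, adjusted p = 0.0846). Each of this pair passed in 4 of 14 alternatives. For FPR1 adjusted p ran from 0.00167 to 0.351 and for C5AR1 from 0.012 to 0.315. This comparison shares its everolimus libraries, which agree closely, with the comparison of everolimus against vehicle.

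**Figure D3:**
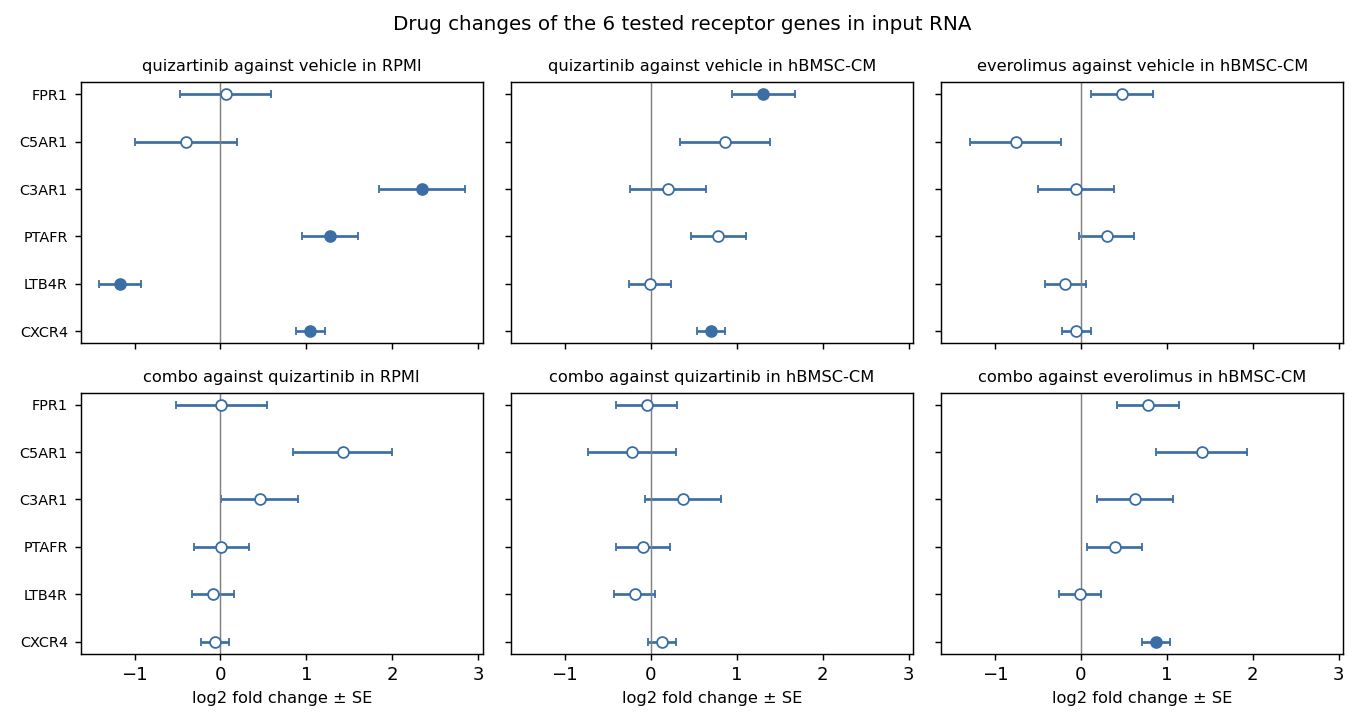
Log2 fold change (points) and its standard error (bars) of the 6 tested receptor genes in input RNA, for the 6 drug comparisons within a medium. Filled points passed an adjusted p of 0.05 in edgeR. CXCR4 is filled in the 3 panels where quizartinib is added, and FPR1 is filled for quizartinib in hBMSC-CM.

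Heavy polysome RNA was then set against input of the same conditions. In the edgeR fit with TMM factors, FPR1, PTAFR and CXCR4 were called higher in heavy polysome RNA in all 7 conditions. FPR1 was higher by 1.64, 1.61 and 1.94 on the log2 scale in RPMI vehicle, quizartinib and combo, and by 1.63, 1.59, 1.36 and 1.65 in hBMSC-CM vehicle, quizartinib, everolimus and combo (SE 0.36 to 0.49, adjusted p from 0.000252 to 0.00416). CXCR4 was higher by 0.72 to 1.14 (adjusted p from 9.34e-07 to 0.000355) and PTAFR by 0.78 to 1.17 (adjusted p from 0.00248 to 0.0328). FPR1 lost its call without replicate 1 in RPMI vehicle (adjusted p = 0.131) and without replicate 3 in RPMI quizartinib (0.0602). With limma voom it was called in neither of these conditions (0.0743 and 0.0738). In RPMI, FPR1 entered these tests through its level in hBMSC-CM, with 5 to 29 counts per input library. Its heavy polysome and input values overlapped in RPMI vehicle. Leaving out 1 culture ended the PTAFR call in 13 of 21 cases, in every condition but RPMI combo, and the CXCR4 call in 0 of 21. C5AR1 passed, with TMM factors, only in RPMI quizartinib, by 1.81 (SE 0.58, adjusted p = 0.00827), where its input library of replicate 3 had 1 count. Without that replicate its adjusted p was 0.1. C3AR1 and LTB4R passed in none of the 7 in this fit. With only the groups compared, both passed in hBMSC-CM everolimus, where the cultures agree closely. C3AR1 was higher (0.70, adjusted p = 0.00371) and LTB4R lower (-0.33, adjusted p = 0.00081). C3AR1 also passed, as lower, in hBMSC-CM vehicle without replicate 1 (-1.16, adjusted p = 0.0487). Most genes differ between the fractions: the shares called were 65.4% in RPMI vehicle, 57.9% in RPMI quizartinib, 59.3% in RPMI combo, 63.6% in hBMSC-CM vehicle, 58.7% in hBMSC-CM quizartinib, 58.6% in hBMSC-CM everolimus and 63% in hBMSC-CM combo. Calls of 3 or 4 of 6 members lie near these shares, which pool both directions. The member calls in this fit were all higher, and 3614 to 4251 of the 12939 genes were called higher in a condition. Whether the members differ from all genes in this was not tested.

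FPR1 lay high in the ranking of these differences, above 93.8% to 98.4% of all genes. The highest rank, in RPMI combo, rests on 7, 14 and 22 input counts. CXCR4 lay above 70.7% to 88.2% of them and PTAFR above 72.1% to 82.3%. With library size as the only scaling, the median of all genes fell from between -0.11 and 0.06 to between -0.63 and -0.22 on the log2 scale. Such a change shifts all genes by a similar amount, so ranks could hardly move and do not test the scaling. FPR1 then lay above 93.5% to 98.3% of genes. Its log2 differences were 1.03 to 1.63, and it missed the threshold in RPMI vehicle (adjusted p = 0.0595). CXCR4 then missed it in RPMI vehicle, hBMSC-CM vehicle and hBMSC-CM quizartinib, and PTAFR in RPMI vehicle and in all 4 hBMSC-CM conditions. Under that scaling LTB4R was called lower in heavy polysome RNA in hBMSC-CM vehicle (-0.70, adjusted p = 0.0114) and everolimus (-0.61, adjusted p = 0.0293). C5AR1 was called lower in RPMI vehicle (-1.64, adjusted p = 0.0303) and hBMSC-CM vehicle (-1.56, adjusted p = 0.0146), against the direction of its call in RPMI quizartinib. A heavy fraction gives each message's share of the reads and no ribosome count.

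Per culture, the ratio of heavy polysome CPM to input CPM was over 1 in 21 of 21 cultures for FPR1 (median 2.74, lowest 1.46, highest 12.8), for CXCR4 (median 1.87, 1.48 to 2.35) and for PTAFR (median 1.93, 1.11 to 3.61). Per library total these were 21, 20 and 20 of 21 cultures. LTB4R was over 1 in 9 of 21 cultures (median 0.91) and in 2 of 21 per library total, and C3AR1 in 16 of 21 (median 1.52) and 11 per library total. The highest FPR1 ratio, in RPMI vehicle replicate 1, rests on 5 input counts.

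**Figure D4:**
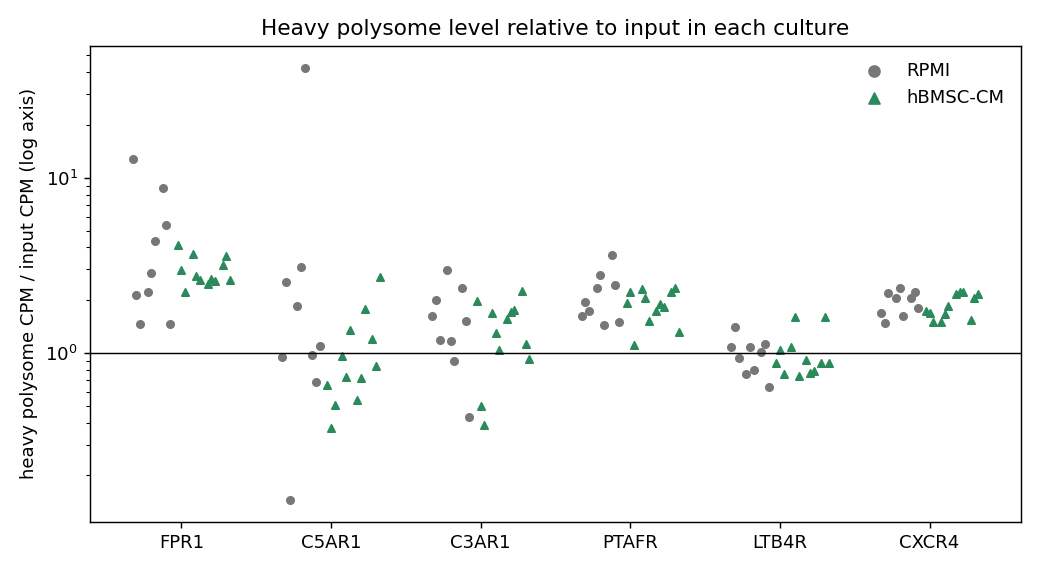
Ratio of heavy polysome CPM to input CPM (log axis) in each of the 21 cultures for the 6 tested receptor genes, with RPMI cultures as grey circles and hBMSC-CM cultures as green triangles. The line marks a ratio of 1. All points of FPR1, PTAFR and CXCR4 lie above it, and those of LTB4R lie on either side.

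Drug effects on heavy polysome RNA beyond those on input called no member in any of the 6 comparisons. Levels are relative to the other messages of a library, so a change in the total amount of polysome RNA is not seen here. The paper reports that RNA yields fell under quizartinib and under combo, more so in heavy polysomes than in input. For quizartinib in RPMI 1.55% of genes were called and C5AR1 was the 1 member with an unadjusted p under 0.05 (2.91, SE 0.88, adjusted p = 0.0883), with adjusted p from 0.0226 to 0.467 over 15 alternatives. In the other 5 comparisons edgeR called 0 genes (0% of those tested), with 93 to 875 genes at an unadjusted p under 0.05, while limma voom called 0 and DESeq2 0 to 7. C5AR1 was the only member of the 6 with an unadjusted p under 0.05 in these 5, for combo against quizartinib in RPMI (-2.02, SE 0.80, adjusted p = 1.0). FPR1 changed by -0.28 to 0.33 (SE 0.51 to 0.68) over the 6 comparisons, and adjusted p was at least 0.994.

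The rest of the pathway was described from lists of known genes. Of 30 other chemoattractant receptors, 15 were measured above the filter. Quizartinib in RPMI raised 8 and lowered 2 of them, where 34.6% of all genes were called, and in hBMSC-CM raised 5 and lowered 0, where 12.3% were. C5AR2, an alternative C5a receptor, rose from 0.588 to 2.70 CPM in RPMI (log2 2.19, adjusted p = 2.72e-05) and from 1.98 to 6.90 CPM in hBMSC-CM (1.80, adjusted p = 0.000957). GPR183, an oxysterol receptor that guides immune cells, rose by 2.23 and 1.41 (adjusted p = 4.64e-05 and 0.0163), and the call in hBMSC-CM was lost without quizartinib replicate 2, vehicle replicate 1 or vehicle replicate 3 (adjusted p = 0.0959, 0.0653 and 0.112). GPR84, a receptor of medium-chain fatty acids, fell by 3.58 in RPMI (adjusted p = 7.92e-06), from 9.62 to 0.801 CPM. LTB4R2 fell by 1.86 in RPMI (adjusted p = 0.0281). Leaving out quizartinib replicate 2 or 3, or vehicle replicate 1 or 2, ended that call (adjusted p = 0.0789, 0.0817, 0.095 and 0.0542), and LTB4R2 shares exon positions with LTB4R.

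Among 15 ligands and the enzymes that make them, 11 were measured, of which quizartinib raised 2 and lowered 2 in RPMI and raised 0 and lowered 1 in hBMSC-CM. These counts lie near the shares of all genes called, 34.6% and 12.3%. ALOX5, which makes the precursor of leukotriene B4, rose by 2.34 in RPMI (adjusted p = 5.83e-05), and ANXA1, whose peptides bind formyl peptide receptors, by 1.31 (adjusted p = 0.00149). MIF, a cytokine that binds CXCR4, fell by 2.09 in RPMI and by 1.54 in hBMSC-CM (adjusted p = 2.58e-06 and 0.00113). LPCAT1, an enzyme that can make platelet-activating factor, fell by 1.27 in RPMI (adjusted p = 3.76e-07).

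Of 18 measured Gi signalling genes, quizartinib raised 4 and lowered 1 in RPMI, against 34.6% of all genes called, and raised 4 and lowered 0 in hBMSC-CM, against 12.3%. PREX1, a Rac activator, rose by 1.23 and 0.90 (adjusted p = 4.23e-05 and 0.00636), and PLCB2, a phospholipase C-beta of myeloid cells, by 1.27 and 1.06 (adjusted p = 0.000589 and 0.0113), with the hBMSC-CM call lost without quizartinib replicate 3 or vehicle replicate 1 (0.0805 and 0.0748). Of 13 genes of desensitisation, 1 rose and 5 fell in RPMI, and 0 rose and 1 fell in hBMSC-CM, beside the same shares of 34.6% and 12.3%. RGS16, which speeds up the switching off of Gi, fell by 4.09 in RPMI, from 52.1 to 3.07 CPM (adjusted p = 9.83e-11), and by 1.64 in hBMSC-CM (adjusted p = 0.000939). Of the 6 NADPH oxidase genes, 0 passed in edgeR in either medium (median changes -0.17 and 0.39). Everolimus against vehicle in hBMSC-CM called 1 gene of the lists described so far, RGS16 (1.34, adjusted p = 0.0471). RGS16 lost this call in 8 of 14 alternatives. Combo against quizartinib called 0 genes of these lists in either medium. The medians over the measured genes of these lists ranged from -0.34 to 1.04 in RPMI and from -0.01 to 1.08 in hBMSC-CM, where the medians of all genes were 0.08 and 0.01 and that of the 6 members 0.55 and 0.74.

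Markers of monocytes and granulocytes moved with medium as the receptors did. The summed input level of the 20 markers was 916 to 1008 CPM in RPMI vehicle and 1224 to 1827 CPM in hBMSC-CM vehicle, and 1055 to 1335 against 2199 to 2596 CPM under quizartinib. Of the 15 that were measured, 13 were higher in hBMSC-CM under vehicle, 14 under quizartinib and 15 under combo, with median log2 differences of 1.02, 1.12 and 1.02. Of the 20, 13 had a count in all 42 libraries, led by LYZ (mean 736.9 CPM), CSF3R (453.5) and CSF1R (190.5). The other 7 were VCAN, without a count in 5 of the 42 libraries, CD14 in 9, FCGR3A and CLEC7A in 23, CD163 in 25, S100A12 in 28 and FCN1 in 36. CD14 had the highest log2 difference of the 15 between media under quizartinib and under combo, from RPMI input libraries with at most 10 counts. Quizartinib in RPMI raised 5 and lowered 3 of the 15, and in hBMSC-CM raised 4 and lowered 0, where 34.6% and 12.3% of all genes were called. The raised ones were led by CSF1R (3.03 and 1.80, adjusted p = 5.71e-10 and 5.89e-05) and TLR4 (1.5 and 1.20, adjusted p = 4.1e-06 and 0.000631). The 3 lowered in RPMI were TLR2 (-0.76, adjusted p = 0.00364), FCGR1A (-0.86, adjusted p = 0.00536) and CD14 (adjusted p = 0.00619), which had 7, 10 and 0 counts under vehicle and none under quizartinib. CD14 passed the filter on low counts through hBMSC-CM, with at most 0.438 CPM in an RPMI library and up to 4.25 CPM in hBMSC-CM. Its test within RPMI thus rests on few counts and is given as a description. CD14 was named after its values were seen. Everolimus against vehicle in hBMSC-CM called CSF1R as higher, and that call was lost in 6 of 14 alternatives. Of the 8 AML markers, quizartinib raised 3 in RPMI and 1 in hBMSC-CM, and of the stromal markers it raised both that passed the filter, COL1A1 and TAGLN, in each medium. The TAGLN call was lost in 2 of 14 alternatives in RPMI, among them without vehicle replicate 1 (adjusted p = 0.0807). In hBMSC-CM it was lost in 6, among them without any 1 of the quizartinib cultures (0.0553 to 0.0633) or without vehicle replicate 1 (0.16). The part of these markers in the receptor levels was not tested. Between the media under vehicle, the median log2 difference in input was 0.46 over the other receptors, -0.06 over ligands, 0.12 over Gi signalling genes, 0.04 over desensitisation genes, 0.48 over NADPH oxidase genes and 2.32 over the 6 members, which were chosen partly on it.

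The genes whose log2 CPM followed FPR1 most closely over the 21 input libraries, out of 12938 compared, were SOCS3 (Pearson r = 0.984), a feedback inhibitor of cytokine signalling, FGR (0.969), a Src-family kinase of myeloid cells, ADGRG3 (0.967), an adhesion receptor of granulocytes, HP (0.966), the hemoglobin-binding haptoglobin, and CD99L2 (0.963). The 21 libraries fall into the same media and treatments for every gene, so these correlations describe those groups and carry no test. SOCS3 averaged 2.98 CPM in RPMI vehicle, 50.1 in hBMSC-CM vehicle, 74.4 in hBMSC-CM everolimus, 131.9 in hBMSC-CM quizartinib and 142.1 in hBMSC-CM combo. Among the 5 other members above the filter, FPR2 and FPR3 not included, the same measure was 0.904 for PTAFR, 0.790 for LTB4R, 0.778 for C5AR1, 0.736 for C3AR1 and 0.263 for CXCR4.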

How the data were processed

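RNA-seq counts of input and heavy polysome RNA from 21 MOLM-13 cultures were analysed. The authors made poly(A)-selected libraries, trimmed reads with BBDuk, aligned them with STAR 2.6.0a (per the submitters' processing notes) to Ensembl hg38 release 96 and deposited raw counts per gene, with no filter, and whether strand was used is not given in the sources used here. Messages with short tails are under-represented after poly(A) selection. PCR copies were not told apart by molecular identifiers, so count floors cover counting error only. The table held 58884 gene rows, 25133 without a count. Rows sharing 1 of 150 names were summed, and 0 columns were left unused. Group and replicate number came from the sample labels.

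The filter kept genes averaging 1 count or more and 1 CPM or more (12939, with 99.8% of counts), and 6 of 8 members passed. All 42 libraries entered 1 robust quasi-likelihood fit in edgeR 4.0.16 (R 4.3.3) with 14 group means and TMM factors, which were 1.06 to 1.25 in input and 0.705 to 1.04 in heavy polysome libraries. A gene was called at an adjusted p (Benjamini-Hochberg, over all genes) under 0.05. "Polysome relative to input" subtracts the change in input from that in polysome RNA. Log2 CPM used a prior count of 2. On simulated data for quizartinib in RPMI (12939 genes), 47% of 2-fold and 85% of 4-fold changes were recovered. Alternatives were RLE factors, library size only, no filter, limma voom (limma 3.58.1), DESeq2 1.42.0, only the groups compared, 3 forms of replicate block, each culture left out, and CPM per library total.

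Same-numbered input cultures deviated together from their group means (r = 0.347 to 0.658 in 12 pairs), except those with everolimus alone (r = -0.0535 to -0.000365 in 6 pairs), so the numbers pair the cultures outside that group. Input against heavy polysome gave r = -0.0438 to 0.303 in 21 pairs, with every pair over 0.1 in 3 of 7 conditions.

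The members and the gene lists were chosen with earlier results of these data known. Named were all members, in each list at most 2 genes per direction with the smallest adjusted p per comparison, the 5 genes most correlated with FPR1, and the 3 most abundant stromal markers. Promoters came from RefSeq (GRCh38.p14), found for 4 of 8 members. Medium comparisons got no test, and no term for a difference between media in the drug effect was fitted.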

Additional observations from a re-analysis of the deposited data

Results flagged for a closer look

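C5AR1 moved in opposite directions in the media when everolimus was added to quizartinib. In RPMI all 3 combo cultures had more C5AR1 in input RNA than the quizartinib culture of the same number (median log2 difference 1.55), and in hBMSC-CM all 3 had less (median -0.28). The difference between the media was not tested. C5AR1 was low in RPMI, at 19, 17 and 1 counts under quizartinib and 23, 48 and 20 under combo, and neither effect passed the edgeR test (adjusted p = 1.0 in each).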

How the results depend on the processing

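Of 114 changes of the 6 tested members in a comparison, 40 are considered here: those called in the reported fit or in at least 1 alternative, and that of FPR1 under quizartinib in RPMI. Over their 505 alternatives, 444 kept direction and side of the threshold, 34 lost the call, 21 gained it and 6 turned. The 6 were all leave-outs of 1 culture: FPR1 under quizartinib in RPMI ran from -0.40 to 1.14 (-0.19, -0.14 and -0.40 on the log2 scale where it turned), C5AR1 in heavy polysome against input of RPMI vehicle from -1.74 to 0.15, and C3AR1 in hBMSC-CM vehicle from -1.16 to 0.19. Of the 74 changes never called, 42 turned in some alternative. The number of members called moved by over 1.5 times in these cases. For quizartinib in hBMSC-CM (2) it was 1 to 2 when 1 culture was left out. For combo against everolimus (1) it was 2 without the filter and with DESeq2, and 3 with limma voom, with only the groups compared and with the replicate block within each fraction. For quizartinib in RPMI, polysome relative to input (0), it was 1 with DESeq2 and with that block. For heavy polysome against input it was 1 in RPMI vehicle (3) with library size only, where that 1 was C5AR1 in the lower direction, and with limma voom, 1 in hBMSC-CM quizartinib (3) with library size only and 5 in hBMSC-CM everolimus (3) with only the groups compared. Leaving out 1 culture gave 1 to 2 in RPMI vehicle and 2 to 4 in RPMI quizartinib. The cause was not tested. CXCR4 under quizartinib in hBMSC-CM lost its call without the filter (adjusted p = 0.0618). FPR1 in heavy polysome against input of RPMI vehicle also lost its call without replicate 1 (0.131), with limma voom (0.0743) and with only the groups compared (0.0946). In RPMI quizartinib it was lost without replicate 3 (0.0602) and with limma voom (0.0738). The replicate block gave PTAFR under quizartinib in hBMSC-CM an adjusted p of 0.0119, and of 0.00142 within each fraction. Within each fraction it also made C3AR1 pass in hBMSC-CM everolimus (0.0403), and it changed no other call of a member outside those above. Of 46 changes of other named genes, 28 were called in all alternatives, and none of their 644 alternatives turned. FPR2, which was under the filter and is not among these changes, was called in the edgeR fit without the filter. It was lower in heavy polysome RNA than in input of RPMI combo (-4.98, adjusted p = 0.00692). Its input libraries there had 4, 9 and 0 counts and its heavy polysome libraries none. CPM per library total moved 34 of 112 mean levels of members by more than 1 SD. Depth limits FPR1, FPR2, FPR3 and C5AR1 in RPMI, where input levels rest on 0 to 48 counts per library.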
